A study of Mus musculus with 4 samples.

Results

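Endothelial-like cells were rare cells of day 6 embryoid bodies, the aggregates in which mouse embryonic stem cells (ESCs) differentiate into many lineages at once. A barcode was counted as endothelial-like when it held at least 2000 UMIs (unique molecular identifiers, each standing for 1 captured RNA molecule) and 1000 genes, and at least 1 UMI in 3 or more of the 6 genes Tie1, Cdh5, Pecam1, Cldn5, Esam and Tek. Across 4 droplet libraries, 157 of 17298 barcodes past the depth filter met this rule. They were 92 of 3660 barcodes in wild-type (WT) replicate 1, 44 of 6338 in WT replicate 2, 8 of 4850 in LSD1 KO replicate 1 and 13 of 2450 in LSD1 KO replicate 2. The counts of these 6 genes chose the members, so their values are given as a description and carry no test.

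The study asked how loss of LSD1, the histone demethylase encoded by Kdm1a, altered the differentiation of ESCs. Both groups came from V6.5 ESCs, a mouse line, formed in hanging drops and grown for 6 days in serum medium without LIF or kinase inhibitors. The LSD1 KO cells lacked the promoter and first exon of Kdm1a in every cell, after deletion with CRISPR, and the WT cells carried no deletion. Several KO clones were made. Each group had 2 libraries, described as biological replicates. The methods name 2 separate clones for the RNA-seq experiments as a whole, but the single-cell protocol does not, and which clone gave each library is not given in the sources used here. A standard deviation (SD) covers the spread between these 2 libraries. The standard error (SE) of a log2 fold change comes from a model fit that shares information on spread across genes. Binomial and Poisson intervals cover counting error only. Total UMIs were 72285943 to 75406512 per library, and the median over non-member barcodes past the filter was 9582 to 24642 UMIs, lowest in WT replicate 2 and highest in LSD1 KO replicate 2. Of the barcode sequences past the filter, 28 occurred in more than 1 library over all pairs of libraries, and 0 of those belonged to a member.

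Endothelial cells line blood vessels. In the embryo they arise from Kdr-expressing mesoderm, in which the ETS factor Etv2 acts early, and ETS, SOX and GATA factors then switch on receptors for VEGF and angiopoietin and the junction proteins that hold the vessel wall together. Some early endothelium also produces the first blood stem and progenitor cells, under the control of Runx1. In mouse ESC cultures Pecam1 is also expressed by undifferentiated cells, so it does not mark endothelium alone there.

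The 6 selecting genes lie at separate places in the mouse genome build mm9, except that Tie1 (chr4:118143796-118162666) and Tek (chr4:94405980-94541667) share a chromosome. Cdh5 is at chr8:106625525-106668402, Pecam1 at chr11:106515531-106611942, Esam at chr9:37335663-37345904 and Cldn5 at chr16:18776940-18778353. ETS factors bind sites around the letters GGAA, and the promoters of 4 genes on which the results turn are printed to show such letters. Ctla2a had the second largest rise of the genes with at least 50 CPM (counts per 1000000 UMIs), Rhoj and Egfl7 were abundant in nearly all members, and Tie1 is a selecting gene. Each is the first listed RefSeq window of 300 bases, 250 before and 50 after the annotated start, in build GRCm38.p6 and in the direction of the gene. Capitals mark AGGAAG, or CTTCCT where the match is on the other strand.
Ctla2a (chr13:60936576-60936875, minus strand): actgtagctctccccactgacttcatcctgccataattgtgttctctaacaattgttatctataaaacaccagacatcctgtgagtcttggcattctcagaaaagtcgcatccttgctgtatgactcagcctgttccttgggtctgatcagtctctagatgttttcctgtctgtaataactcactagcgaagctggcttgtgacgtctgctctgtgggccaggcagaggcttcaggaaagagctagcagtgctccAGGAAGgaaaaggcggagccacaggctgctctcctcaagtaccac
Rhoj (chr12:75308063-75308362, plus strand): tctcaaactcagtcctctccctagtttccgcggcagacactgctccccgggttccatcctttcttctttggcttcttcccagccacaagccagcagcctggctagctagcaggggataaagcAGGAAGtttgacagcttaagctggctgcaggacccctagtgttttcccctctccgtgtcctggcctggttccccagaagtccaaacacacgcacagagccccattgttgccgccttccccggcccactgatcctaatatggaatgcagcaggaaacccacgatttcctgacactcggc
Egfl7 (chr2:26580833-26581132, plus strand): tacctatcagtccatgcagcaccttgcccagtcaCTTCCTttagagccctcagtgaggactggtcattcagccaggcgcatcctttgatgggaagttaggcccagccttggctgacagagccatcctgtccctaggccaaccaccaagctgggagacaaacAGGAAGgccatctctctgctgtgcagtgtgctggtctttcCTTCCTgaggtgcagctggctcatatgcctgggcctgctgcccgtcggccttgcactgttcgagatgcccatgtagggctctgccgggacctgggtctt
Tie1 (chr4:118489800-118490099, minus strand): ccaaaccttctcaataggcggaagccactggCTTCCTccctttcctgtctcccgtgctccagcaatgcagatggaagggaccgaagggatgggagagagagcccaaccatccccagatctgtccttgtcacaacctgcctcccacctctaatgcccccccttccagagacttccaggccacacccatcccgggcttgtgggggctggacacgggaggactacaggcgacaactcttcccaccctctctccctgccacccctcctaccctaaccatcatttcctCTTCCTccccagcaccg

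The Rhoj window held 1 match, which began 128 bases before the start. Egfl7 held 3, beginning 216, 89 and 49 bases before the start, and Tie1 held 2, beginning 219 bases before and 33 bases after it. The match in Ctla2a began 5 bases after the start. Every window printed held a match, so these windows do not show how common matches are. Of the 6 selecting genes, 3 had a window, and Tie1 was the only 1 of them with a match. Of the 12 panel genes described below, 6 had a window and 3 held a match. Among the 10 largest rises, 7 had a window and 6 held a match. AGGAAG, on either strand, was present in 32.4% of 11944 first windows of genes tested in the WT comparison and in 40.3% of 1092 first windows of the genes that were higher in endothelial-like cells. The longer CAGGAAG, which overlaps it, was in 12% and 15.5% of the same windows. CCGGAAG was in 16.8% of all tested windows and in 12.7% of those of the higher genes. These 3 motifs were chosen after gene levels had been seen and their shares are descriptions.

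The 6 selecting genes were carried by different shares of the members in different libraries. In this section a share of barcodes with a UMI is set beside the same share in the other barcodes of the library. That second share can hold free RNA as well as cells that express the gene. The median depth of members and others was 21350 and 14268 UMIs in WT replicate 1 and 10142 and 9582 in WT replicate 2. It was 13644 and 12831 UMIs in LSD1 KO replicate 1 and 21559 and 24642 in LSD1 KO replicate 2. Cdh5, the cadherin of endothelial junctions, was found in 96.7% and 93.2% of members of the 2 WT libraries, and in 1.07% and 1.16% of the other WT barcodes. In the LSD1 KO libraries 5 of 8 and 9 of 13 members carried it, and 0.929% and 0.698% of the other barcodes. Tek, the angiopoietin receptor, was found in 89.1% and 88.6% of WT members and in 3.78% and 1.53% of the other WT barcodes. It was found in 1 of 8 and 9 of 13 LSD1 KO members and in 2.27% and 4.84% of the other LSD1 KO barcodes. Most WT members therefore combined Cdh5 with Tek.

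Pecam1, an adhesion molecule of endothelial and blood cells, was found in 83.7% and 52.3% of WT members and in 1 of 8 and 6 of 13 LSD1 KO members. Of the 6 genes it was found in the largest share of other barcodes in each library, at 2.29% to 7.99%. Tie1, the partner receptor of Tek, was found in 83.7% and 56.8% of WT members and in 4 of 8 and 5 of 13 LSD1 KO members, and in 0.186% to 0.369% of the other barcodes of the 4 libraries. Esam, a junction adhesion molecule, was found in 77.2% and 63.6% of WT members, and in 8 of 8 and 8 of 13 LSD1 KO members, against 1.05% to 1.97% of the other barcodes. Cldn5, a tight junction claudin, was carried by 20.7% and 6.82% of WT members and by 6 of 8 and 6 of 13 LSD1 KO members. Outside the members it was also more common in the LSD1 KO libraries, at 1.43% and 4.06% of the other barcodes against 0.0561% and 0.175% in WT. The summed Cldn5 level in members was 17.8 and 5.08 CPM in WT and 188 and 23.1 CPM in LSD1 KO.

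**Figure D1:**
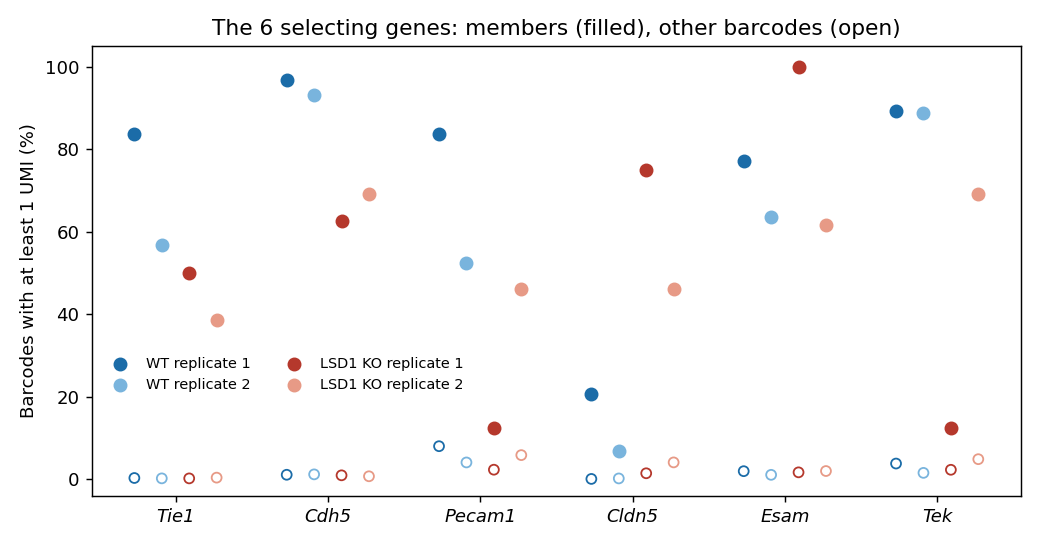
Percent of barcodes with at least 1 UMI of each of the 6 selecting genes, for members (filled points) and all other barcodes past the depth filter (open points) of each library. Cldn5 is carried by 20.7% and 6.82% of WT members and by 75.0% and 46.2% of LSD1 KO members.

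The share of endothelial-like barcodes was 2.51% (exact binomial 95% interval 2.03 to 3.07) in WT replicate 1 and 0.694% (0.505 to 0.931) in WT replicate 2. It was 0.165% (0.0712 to 0.325) in LSD1 KO replicate 1 and 0.531% (0.283 to 0.906) in LSD1 KO replicate 2. Both WT shares exceeded both LSD1 KO shares, but the intervals of WT replicate 2 and LSD1 KO replicate 2 overlapped, and these intervals cover counting error only. The difference of the means was -1.26 percentage points, with a two-sided exact permutation p of 0.33, the smallest that 2 libraries against 2 can give. With WT replicate 1 left out, the difference was -0.346 points.

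The order of the libraries depended on how many markers were asked for. With 2 or more markers the shares were 4.10% and 1.72% in WT and 0.722% and 2.73% in LSD1 KO, so LSD1 KO replicate 2, the deepest library, passed WT replicate 2 (exact permutation p = 0.67). With 4 or more markers they were 2.13% and 0.268% in WT and 0.0206% and 0.0816% in LSD1 KO. When each barcode was thinned to 2000 UMIs, with no barcode lost, 23 and 4 WT barcodes and 1 and 0 LSD1 KO barcodes met the rule. A count of 0 in 2450 barcodes allows a share of up to 0.122%, taken as 3 counts, and the exact binomial 95% bound is 0.150%.

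**Figure D2:**
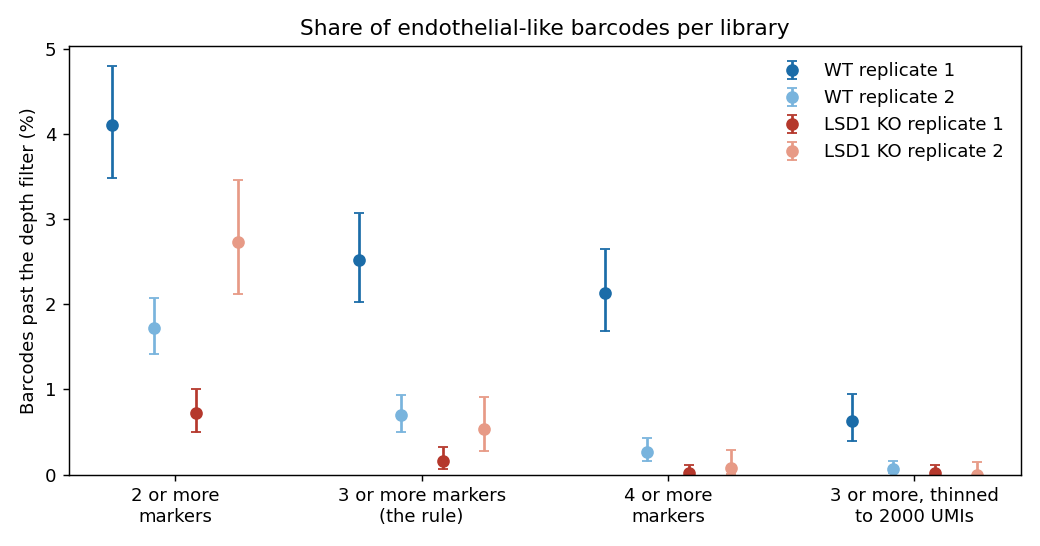
Share of barcodes past the depth filter that count as endothelial-like in each library, with exact binomial 95% intervals, under 4 settings. WT replicate 1 is highest throughout, and LSD1 KO replicate 2 lies above WT replicate 2 only with 2 or more markers, at 2.73% against 1.72%.

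To ask what else marks these cells, UMIs were summed over the members and over the other barcodes of each WT library, and genes outside the rule were tested with edgeR, with the library as a block. The 136 WT members held 2782452 UMIs. Of 15164 genes tested, 1430 were higher (9.43%) and 1300 lower (8.57%) in endothelial-like cells at an adjusted p under 0.05. Scaled by library totals alone, 1238 were higher and 1562 lower, so the balance of directions turned with the scaling. The CPM was at least 2 times higher in both WT libraries for 420 genes and at least 2 times lower in both for 473, that is 2.77% and 3.12% of the tested genes. The test asks whether genes differ between cells that were picked by 6 other genes of the same cells. On counts simulated for 2 such pairs it called 56 of 100 genes changed by a fold of 4 and 22 of 100 changed by a fold of 2. Smaller changes were thus often missed there. The simulation held no difference between libraries and no gene-specific spread, so these rates need not hold for the real sums.

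The genes with the largest rises, among those with at least 50 CPM, were led by Ctla2b and Ctla2a, which encode related cysteine protease inhibitors. Ctla2a stood at 1294 and 922 CPM in the WT members and at 3.31 and 4.77 CPM in the other WT barcodes, and Ctla2b at 141 and 146 CPM against 0.482 and 0.520 CPM. Their log2 fold changes were 8.18 ± 0.25 (SE) for Ctla2a and 8.22 ± 0.17 for Ctla2b. These genes are near copies on chromosome 13, and how reads were shared between them is uncertain. The next were Icam2, an adhesion molecule of endothelium (log2 fold change 7.73 ± 0.27), Mrc1, the mannose receptor (7.39 ± 0.30), Samsn1 (7.01 ± 0.28), Igf1, a growth factor (6.70 ± 0.15), Erg (6.34 ± 0.24), Rhoj (5.98 ± 0.34), Fli1 (5.95 ± 0.20) and Car8 (5.87 ± 0.32). Mrc1 is also a gene of macrophages. Of the 7 myeloid markers followed, Tyrobp was the only 1 called higher, at 4.11 and 3.38 CPM, and Ptprc and Aif1 had no UMI in WT members.

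The largest fall among genes with at least 50 CPM was that of Ttr, a transport protein of visceral endoderm, which stood at 1.37 and 1.69 CPM in WT members and at 245 and 85.0 CPM in other WT barcodes, a log2 fold change of -7.10 ± 0.29. Cdh6 (-5.03 ± 0.36), Sfrp1, a Wnt antagonist (-4.49 ± 0.31), P3h2 (-3.95 ± 0.37), Spink1 (-3.91 ± 0.13), Fras1 (-3.79 ± 0.36), Pid1 (-3.66 ± 0.22), Ptprt (-3.64 ± 0.31), Robo2 (-3.55 ± 0.24) and Apela (-3.54 ± 0.18) followed. Spink1 was the most abundant of them outside the members, at 1666 and 1027 CPM, and kept 116 and 45.7 CPM in the WT members.

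Of 22 endothelial transcription factors, 19 were called higher and 0 lower, with a median log2 fold change of 3.27 against -0.07 over all tested genes. Fli1, an ETS factor, stood at 347 and 301 CPM in WT members and 4.70 and 6.82 CPM in the others. It was found in 88 of 92 and 42 of 44 WT members, so it marked the members about as widely as Cdh5. Erg, its closest relative, stood at 118 and 103 CPM against 1.16 and 1.89 CPM. Etv2, the early ETS factor, rose with a log2 fold change of 3.53 ± 0.15, and 57 of 92 and 26 of 44 members held a UMI of it. Tal1 (4.51 ± 0.14) and Lmo2 (4.78 ± 0.13), partners in a complex of early blood and endothelium, rose too, as did Sox7 (5.59 ± 0.24) and Gata2 (2.81 ± 0.22).

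3 factors of the list were not called. Sox17, a SOX factor of arterial endothelium and of definitive endoderm, stood at 46.5 and 28.8 CPM in WT members and 45.8 and 41.7 CPM in the others (adjusted p = 0.95). Klf4 had an adjusted p of 0.49, and Prox1, the factor of lymphatic endothelium, of 0.31. Sox17 did differ from WT cardiac and lateral mesoderm barcodes, with a log2 fold change of 2.02 and an adjusted p of 0.002.

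**Figure D3:**
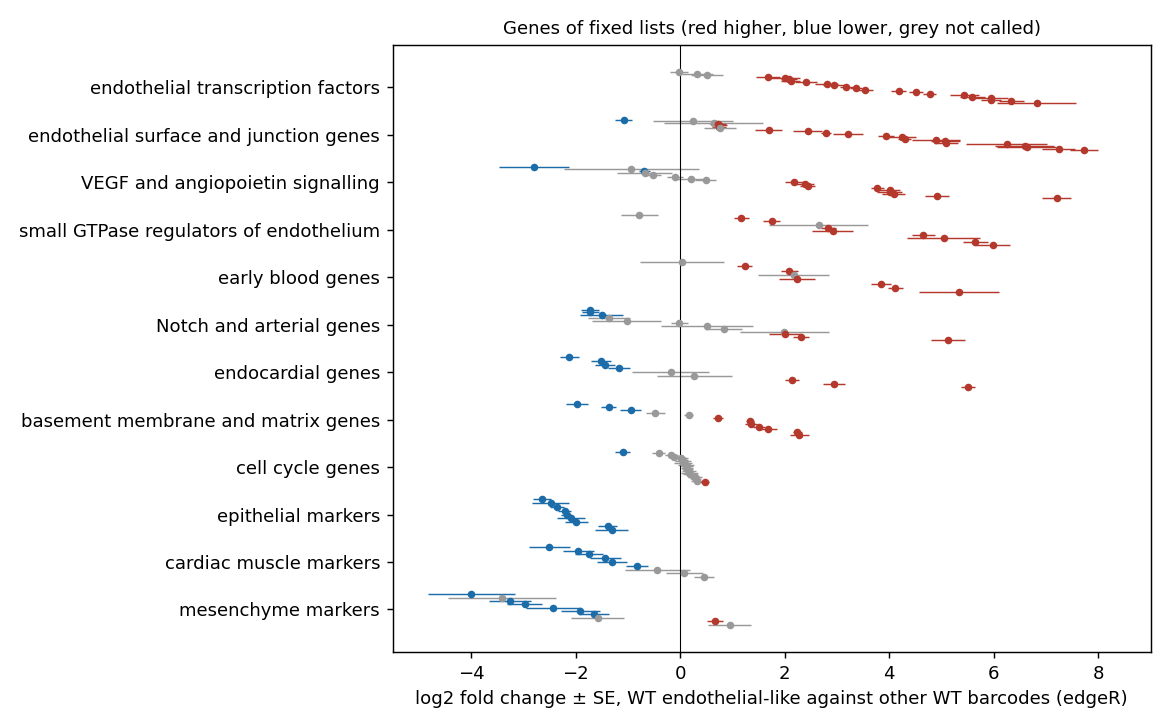
log2 fold change with its standard error for genes of 12 lists, WT endothelial-like barcodes against other WT barcodes (edgeR, 2 libraries as pairs). The 6 selecting genes and genes with no UMI in the WT members are not drawn. 19 of 22 endothelial transcription factors are red, that is higher, and all 9 epithelial markers are blue, that is lower.

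Among 18 genes of VEGF and angiopoietin signalling, 9 rose and 2 fell (median log2 fold change 1.34). The risers were mostly receptors. Kdr, the main VEGF receptor of endothelium, stood at 381 and 313 CPM in WT members (347 ± 47.8, SD, n = 2) and at 26.2 and 28.3 CPM in the other WT barcodes. Both member levels were over 10 times both other levels, and the log2 fold change was 3.78 ± 0.13. Flt1, the decoy VEGF receptor, rose less (2.19 ± 0.18), from 76.2 and 50.9 CPM to 266 and 299 CPM. Flt4, the VEGF-C receptor, rose by 4.92 ± 0.23 and Plxnd1, a semaphorin receptor, by 4.08 ± 0.22. Calcrl and Ramp2 together form the adrenomedullin receptor, and they rose by 4.01 ± 0.24 and 4.01 ± 0.20. Ptprb, the phosphatase that restrains Tek, rose by 7.21 ± 0.27.

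Of the 8 ligands in the list, Pgf was called, and it was lower at 0.456 and 1.69 CPM against 5.30 and 5.51 CPM, though not with DESeq2 (adjusted p = 0.33). Vegfb, Vegfc, Angpt1, Angpt2, Apln and Adm were not called. Vegfa was not called either (-0.52 ± 0.15, adjusted p = 0.062), but it was called lower under 5 of 9 alternatives, with adjusted p-values over the 9 of 0.018 to 0.43. Angpt1, at 4.11 and 0 CPM in members, was called lower against WT cardiac and lateral mesoderm barcodes (adjusted p = 0.011). Nrp1, a co-receptor for VEGF, was lower in members, at 302 and 217 CPM against 570 and 304 CPM, whereas its relative Nrp2 rose by 2.44 ± 0.14. Against WT cardiac and lateral mesoderm barcodes the log2 fold change of Nrp1 was -1.97.

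Of 25 surface and junction genes outside the rule, 22 were tested, 18 rose and 1, Podxl, fell, with a median log2 fold change of 3.58. Egfl7, a secreted endothelial factor, stood at 333 and 377 CPM against 53.5 and 53.7 CPM and was found in 88 of 92 and 40 of 44 members. Ecscr, an endothelial surface protein, rose by 4.30 ± 0.12 and Cd34, a sialomucin of vessels and blood progenitors, by 7.24 ± 0.31. S1pr1, a sphingosine phosphate receptor, and Plvap, a protein of vessel fenestrae, rose by 4.24 ± 0.27 and 4.90 ± 0.45. Clec14a and Esm1, a marker of sprouting tip cells, had 0 UMIs in the 136 WT members, where 3 counts would be 1.08 CPM, and also in all other WT barcodes. Vwf, the clotting factor stored by mature endothelium, stood at 19.6 and 15.2 CPM, with a log2 fold change of 1.70 ± 0.26.

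Regulators of small GTPases, which shape the endothelial skeleton and lumen, behaved like the surface genes: 8 of 10 rose and 0 fell (median 2.88). Rhoj, a small GTPase of endothelium, stood at 262 and 252 CPM against 2.67 and 7.07 CPM. Rasip1, needed for lumen formation, rose by 5.65 ± 0.24 and Fgd5 by 4.66 ± 0.21. Radil and Tm4sf1 were not called.

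Genes of arterial and venous identity were not uniform. Of 14 Notch and arterial genes, 12 were tested, 3 rose and 3 fell, and the median was 0.25. Notch1 (2.31 ± 0.16), Hey2 (2.01 ± 0.31) and the gap junction gene Gja4 (5.13 ± 0.33) rose. The Notch target Hes1 (-1.72 ± 0.16), the ligand Jag1 (-1.50 ± 0.41) and the netrin receptor Unc5b (-1.73 ± 0.17) fell, but Jag1 lost the call under 3 of 9 alternatives: DESeq2 (adjusted p = 0.20), no library block (0.078) and the deepest 5% of barcodes left out (0.14). The arterial ligand Dll4 was found in 4 of 92 and 0 of 44 WT members. Among 9 venous and lymphatic genes, 8 were tested, 5 rose and 1, the lymphatic gene Pdpn, fell. The venous factor Nr2f2 rose by 2.41 ± 0.21 and the venous receptor Ephb4 by 1.03 ± 0.17, while Stab2 was found in 4 of 92 and 0 of 44 members and Lyve1 in 3 and 1.

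Of 10 endocardial genes, 3 rose and 4 fell (median -0.67, or -0.63 with the genes at 0 in members set to 3 counts). Hapln1, a hyaluronan link protein of cardiac jelly, stood at 475 and 352 CPM against 12.4 and 6.79 CPM (5.51 ± 0.13). Nfatc1, the factor of endocardial valves, rose by 2.94 ± 0.21 and Nrg1, an endocardial ligand for heart muscle, by 2.14 ± 0.14. The heart factors Gata4 and Tbx20 were lower, by log2 fold changes of -1.43 ± 0.19 and -1.17 ± 0.22.

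Of 10 early blood genes 8 were tested, 6 rose and 0 fell (median 2.21). Itga2b, the integrin CD41 of the first blood progenitors, stood at 76.2 and 40.6 CPM against 5.08 and 3.91 CPM and was found in 57 of 92 and 17 of 44 members. Runx1 was found in 16 of 92 and 8 of 44 members (log2 fold change 2.09 ± 0.17). Cbfa2t3 (4.12 ± 0.15), Kit (1.24 ± 0.14), Myb (2.24 ± 0.35) and Spi1 (5.33 ± 0.77) rose as well, but Myb was not called once the deepest 5% of barcodes were left out (1.02, adjusted p = 0.15). Ptprc, which encodes CD45 of mature white blood cells, had 0 UMIs in WT members. Red blood cell genes gave 3 rises and 1 fall among 8 tested, all at low levels: the embryonic globin Hbb-bh1 stood at 30.6 and 10.2 CPM in members against 16.2 and 7.13 CPM, and Hba-x was lower at 0.913 and 0 CPM against 20.5 and 2.99 CPM. Hbb-bh1 was not called with DESeq2 (adjusted p = 0.44), without the library block (0.21) or with 4 or more markers (0.16), and Hba-x was not called without the block (0.34).

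Genes of the vessel wall matrix moved in both directions. The collagen IV chains Col4a1 and Col4a2 rose by 1.34 ± 0.08 and 1.51 ± 0.11, Col18a1 by 2.24 ± 0.08, Nid1 by 2.28 ± 0.18 and the endothelial laminin chain Lama4 by 1.69 ± 0.17. Lama5, Lamb1 and Nid2 fell. Over the list, 7 of 12 tested genes rose and 3 fell (median 1.03). In BMP and TGF-beta signalling 5 of 12 rose and 4 fell (median -0.24), with rises of the receptors Acvrl1 (4.33 ± 0.28), Eng (5.09 ± 0.22) and Tgfbr2 (1.95 ± 0.17) and falls of Bmp4, Bmper, Id1 and Id2. Of 10 transport and lipid uptake genes, 8 were tested, 2 rose and 2 fell, and the median was -1.17, or -0.23 with the genes at 0 in members set to 3 counts. The glucose transporters Slc2a1 and Slc2a3 were the ones that fell, from 425 and 248 CPM to 115 and 52.5 CPM for Slc2a1.

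Cell cycle genes differed little. Of 20 genes, 1, the kinase Cdk1, rose by 0.47 ± 0.09, 1, the cell cycle inhibitor Cdkn1c, fell by 1.10 ± 0.14 on the log2 scale, and 18 were not called (median 0.13). Among 13 tested genes of LSD1 and its partners, 10 were not called (median -0.06). Kdm1a itself stood at 214 and 191 CPM in WT members and 217 and 230 CPM in the others (adjusted p = 0.85). Its co-repressor partner Rcor1 rose by 0.87 ± 0.13, the related Rcor2 fell by 1.05 ± 0.18 on the log2 scale, and Snai2, which recruits the complex, fell by 2.02 ± 0.28.

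Markers of other cell types were mostly lower in the WT members. All 9 epithelial markers were called lower (median -2.17), and their summed level was 502 and 640 CPM in members against 2761 and 1987 CPM in the others. Of 10 cardiac muscle markers 7 fell, of 8 tested visceral endoderm markers 5, of 11 mesenchyme markers 7, of 7 tested nascent mesoderm markers 4, of 9 neural markers 5, of 6 tested pericyte and smooth muscle markers 2 and of 8 pluripotency markers 2. Apoe, Twist1, Dppa4 and Nes were the members of these lists, the myeloid list aside, that rose. Dppa4, a gene of undifferentiated cells, rose by 3.74 ± 0.62 and was found in 23 of 92 and 9 of 44 members, while Pou5f1, which defines that state, was found in 3 and 0. The epithelial markers did not fall as widely against the mesoderm sets compared below. Against WT cardiac and lateral mesoderm barcodes 2 of 8 tested were lower (median -0.06), and against WT mesenchyme barcodes 1 of 9 (median -0.06). Epcam, which defines epithelium, was found in 16 of 92 and 8 of 44 WT members. Those members held a median of 32466 and 23994 UMIs, against 17796 and 9894 UMIs in members with no Epcam. No doublet caller was run, and the part of doublets in these values was not tested.

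Against cells with the markers of cardiac and lateral mesoderm, tissue that lies beside early vessels in the embryo, the members again differed widely. These 1251 WT barcodes held a UMI in 3 or more of Tnnt2, Hand1, Hand2, Foxf1, Myocd and Nkx2-5, and 12 WT barcodes that met both rules were left out. Of 11679 genes tested, 1099 were higher (9.41%) and 843 lower (7.22%) in endothelial-like cells. With library totals as the scale the split was 1032 higher and 1058 lower. Icam2, Ctla2a, Ctla2b, Samsn1 and Mrc1 had the largest rises, with log2 fold changes of 8.31 to 9.86. Ttn, the giant muscle protein (-7.78 ± 0.41), Adamts2 (-6.68 ± 0.39), Ttr (-5.93 ± 0.39), Snai2 (-5.20 ± 0.27) and Col1a1 (-4.93 ± 0.37) had the largest falls. Mef2c, a factor of muscle and endothelium, was higher than in the other WT barcodes (log2 fold change 1.67 ± 0.23) but was not called here (-0.32, adjusted p = 0.6). Epcam was not called either (0.07, adjusted p = 0.8). Lama4 was not among the 6 of 12 tested matrix genes that were higher here.

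Against the 690 WT barcodes with 3 or more of the mesenchyme markers Foxc2, Pax3, Alx1, Pdgfra, Twist1 and Prrx2, with 3 barcodes that met both rules left out, 1245 of 11611 genes were higher (10.7%) and 1007 lower (8.67%). With library totals as the scale the split was 878 higher and 1111 lower, and with DESeq2 it was 508 and 269, so the balance of directions depended on the scaling. Ctla2b, Samsn1, Ctla2a, Icam2 and Car8 led the rises (log2 fold changes 7.97 to 10.31). Sfrp1 (-7.28 ± 0.37), Ptgds (-6.85 ± 0.30), Ebf2 (-6.49 ± 0.57) and Crabp1 (-5.36 ± 0.32) fell most among genes with a UMI in the members, and Cer1 had none against 39.9 and 71.6 CPM. The same 3 of 14 Notch and arterial genes, Notch1, Hey2 and Gja4, were higher as against the other WT barcodes, with 4 lower. Against the WT cardiac and lateral mesoderm barcodes Notch1, Efnb2 and Gja4 were higher and 2 genes lower, and Hey2 was not among those called.

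**Figure D4:**
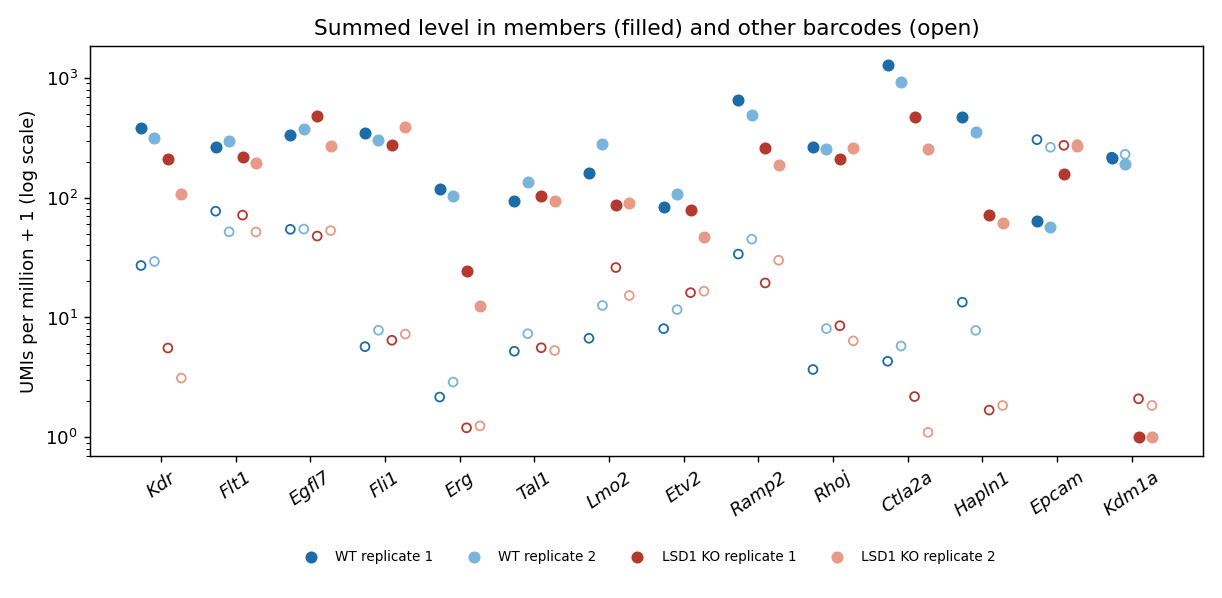
Summed level of 14 genes in members (filled) and other barcodes (open) of each library, as CPM plus 1 on a log axis. In members of the 4 libraries Fli1 lies at 274 to 387 CPM, Rhoj at 212 to 262 CPM and Egfl7 at 272 to 478 CPM, Kdr, Erg and Hapln1 are lower in both LSD1 KO libraries, and Kdm1a has 0 UMIs in LSD1 KO members.

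A panel of 12 genes that the rule did not use was taken as the largest rises among the called members of the endothelial transcription factor, VEGF and angiopoietin, and surface and junction lists whose mean level in the WT members was at least 50 CPM: Icam2, Erg, Fli1, Sox7, Flt4, Lmo2, Tal1, Ecscr, Elk3, Plxnd1, Calcrl and Ramp2. In WT it is a description, since these cells chose it. Of the WT members 87 of 92 and 42 of 44 held 6 or more panel genes, as did 35 and 93 WT barcodes and 33 and 41 LSD1 KO barcodes outside the rule. Over all barcodes past the filter, 3.33% and 2.13% in WT and 0.804% and 2.0% in LSD1 KO held 6 or more. LSD1 KO replicate 2 thus lay just below WT replicate 2, but this count was not matched for depth. The median over all these barcodes was 14426 and 9593 UMIs in WT and 12835 and 24642 UMIs in LSD1 KO. The 41 barcodes of LSD1 KO replicate 2 outside the rule held a median of 37578 UMIs. The summed panel level in WT replicate 1 was 77.8 CPM in barcodes with none, 113 CPM with 1, 597 CPM with 2, 1406 CPM with 3 and 2956 CPM with all 6. In WT replicate 2 it was 86.9, 262, 1267 and 1914 CPM with 0, 1, 2 and 3 selecting genes, 1820 CPM with 4, 2022 CPM with 5 and 2986 CPM with 6. The barcodes just outside the threshold, with 2 selecting genes, thus held 6 or more panel genes in 19 of 58 and 39 of 65 cases, and those just inside, with 3, in 10 of 14 and 27 of 27.

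The WT barcodes outside the rule that held 6 or more panel genes carried high levels of genes in neither list. Their Kdr level was 405 and 385 CPM, and their Etv2 level was 179 and 195 CPM, against 82.1 and 107 CPM in the members. Tie1 stood at 5.86 and 4.46 CPM there against 112 and 57.5 CPM in members, which the rule itself favours. In the LSD1 KO barcodes of this kind Kdr stood at 55.8 and 22.5 CPM and Fli1 at 112 and 28.0 CPM. The WT barcodes of this kind had 198 and 267 CPM of Fli1. Fli1 is a panel gene, so the choice of these barcodes used its counts. Their median depth also differed, at 15281 and 11197 UMIs in WT and 17375 and 37578 UMIs in LSD1 KO. These levels were not tested, nor was the part of depth in them.

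Within the WT members, barcodes with and without a UMI of Etv2 or Runx1 were set side by side as a description, since the genes named were picked for their size. The 57 and 26 members with Etv2 had more Lmo2 (187 and 372 CPM against 100.3 and 127 CPM) and more Hhex (105 and 124 CPM against 59.3 and 61.3 CPM). They had less Bmp4 (7.42 and 8.27 CPM against 48.0 and 43.8 CPM). The 16 and 8 members with Runx1 had more Myb, a factor of blood progenitors (56.8 and 34.9 CPM against 3.65 and 4.77 CPM), and less Etv2 (40.3 and 40.7 CPM against 96.0 and 134 CPM). They also held more Krt8 (275 and 693 CPM against 65.6 and 9.54 CPM) and more Tagln, a smooth muscle gene (60.4 and 210 CPM against 1.22 and 0 CPM). Members with either gene were deeper, with medians of 30833 and 20316 UMIs with Runx1 against 20612 and 9622 UMIs without, and the part of depth in this split was not tested.

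The 21 LSD1 KO members held 473512 UMIs in all, too few barcodes per library for a test, and their levels are given with exact Poisson 95% intervals that cover counting error only. Kdm1a had 0 UMIs in them, where 3 counts would be 6.34 CPM, against 209 CPM (192 to 227) in the WT members. Fli1 stood at 357 CPM (305 to 415) against 337 CPM (316 to 359) in WT members. Kdr stood at 135 CPM (104 to 173) against 366 CPM (344 to 389), Hapln1 at 63.4 CPM (42.7 to 90.4) against 449 CPM (425 to 475) and Erg at 14.8 CPM (5.94 to 30.5) against 115 CPM (102 to 128). Aplnr, the apelin receptor, had 0 UMIs against 63.6 CPM (54.6 to 73.7). Runx1 was found in 1 of 21 LSD1 KO members. 5 of the 21 held at most 1 panel gene, and without them the levels over the other 16 were 468 CPM (401 to 545) for Fli1, 177 CPM (137 to 227) for Kdr, 83.2 CPM (56.1 to 119) for Hapln1 and 19.4 CPM (7.80 to 40.0) for Erg. The pooled Fli1 level was then above the WT interval, while Kdr, Hapln1 and Erg stayed below theirs. The LSD1 KO libraries differed for Fli1, at 274 CPM in replicate 1 and 575 CPM in replicate 2. The WT members, at 347 and 301 CPM, lay between them. A single barcode of LSD1 KO replicate 2 held 47 of the 169 Fli1 UMIs. Fli1 and Erg belong to the panel, so the omission raises them by construction.

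Not all LSD1 KO members carried the wider endothelial profile. In LSD1 KO replicate 1, 6 of 8 held 6 or more panel genes and the fewest was 5. In LSD1 KO replicate 2, 8 of 13 held 6 or more and the other 5 held at most 1. Of those 5, the pair with 32 and 36 UMIs of Cdh5 held 21 and 111 UMIs of the keratin Krt8. The remaining 3 held 1 or 2 UMIs each of Pecam1, Tek and Cldn5 or Tie1, and 33 to 336 UMIs of Dppa5a, a gene of undifferentiated ESCs. None of the 5 held a UMI of Kdr, Flt1, Etv2 or Fli1. Egfl7 was present, with 8 and 3 UMIs in barcodes with Dppa5a, and stood at 97.5 CPM over the 5. Little of the wider endothelial profile was thus detected in these 5 barcodes, and LSD1 KO replicate 2 is given with and without them. Without them its Cdh5 level fell from 249 to 77.2 CPM and its Kdr level rose from 107 to 159 CPM. Counting only members with 6 or more panel genes, which also leaves these 5 out, gave it a share of 0.327%. That condition gave 0.124% in LSD1 KO replicate 1, 2.38% in WT replicate 1 and 0.663% in WT replicate 2. In LSD1 KO replicate 1 it left out 2 members that held 5 panel genes, and in the WT libraries 5 and 2 members. The 5 left out of WT replicate 1 held the pluripotency markers Zfp42 and Pou5f1 at 317 and 57.6 CPM. The 87 kept there had 0 and 0.943 CPM. In WT replicate 2 both genes were at 0 CPM in the members kept and in those left out.

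Epcam, which few WT members held, was found in 5 of 8 and 13 of 13 LSD1 KO members, at 157 and 269 CPM, and at 120 CPM in the 8 members of LSD1 KO replicate 2 with 6 or more panel genes. In the other LSD1 KO barcodes it stood at 273 and 277 CPM. Over the epithelial list the summed level was 392 and 1390 CPM in LSD1 KO members and 782 and 603 CPM in the others, and the part of such RNA in the LSD1 KO members was not tested.

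**Figure D5:**
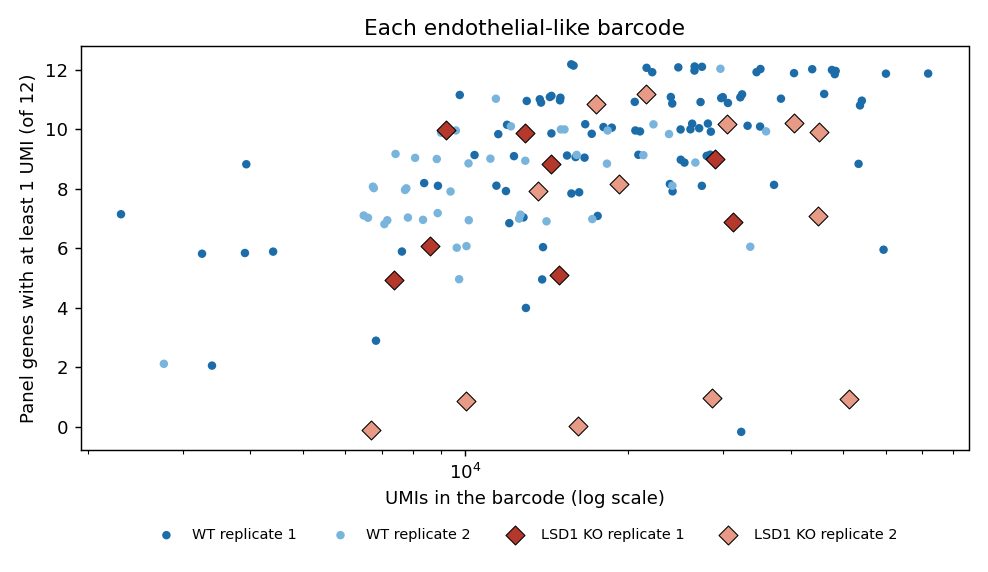
Each member by its UMIs (log axis) and the number of panel genes with at least 1 UMI, with a small vertical spread added so that points can be told apart. 5 of 13 members of LSD1 KO replicate 2 sit at 0 or 1 panel genes, as does 1 deep member of WT replicate 1, while nearly all others hold 5 or more.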

How the data were processed

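Single cells of day 6 embryoid bodies were measured in 4 droplet libraries, 2 WT and 2 LSD1 KO, with the 10x 3′ chemistry. The deposited files hold UMI counts per gene and barcode. Per the labels and file headers the authors made these counts with Cell Ranger 7.1.0 against mouse build mm9, and Seurat 4.3.0 served their own clustering, which was not used here. All barcodes were deposited, for 25209 gene symbols that include no mitochondrial gene. The study removed barcodes under 500 UMIs or 500 genes, and here 2000 UMIs and 1000 genes were required. No doublet caller was run.

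Groups were taken from the sample titles. UMIs were summed per library and cell set and tested with edgeR 4.0.16 (quasi-likelihood, TMM, library as block, filterByExpr, Benjamini-Hochberg adjusted p under 0.05), on genes outside the rule. In this test both sums of a pair come from the same library. The SE of a log2 fold change was its absolute value divided by the square root of the F statistic. The bias-corrected dispersion setting of edgeR was chosen over its older default after both had been run on these data, because the older setting estimated no gene-specific spread and gave very small p-values. Values are 2 pairs, and leaving out a library leaves no spread to test. DESeq2 1.42.0, other scalings, filters, marker numbers and depths were tried, and the fits were tested on simulated data. Shares were compared by exact permutation, with exact binomial and Poisson intervals from scipy 1.17.1. CPM means counts per 1000000 UMIs of the set. RefSeq promoter windows (GRCm38.p6) are in another build than the files (mm9), and no coordinate was moved between them.

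The members, the gene lists and the 3 promoter motifs were chosen with earlier results of these data known. Named genes were the 6 selecting genes, members of the lists, and the 10 largest rises and falls (5 for cardiac and lateral mesoderm) among called genes with at least 50 CPM in the higher set and the same direction in both libraries. The 5 named against mesenchyme, the panel and the genes of the Etv2 and Runx1 splits were picked after their values were seen.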

Additional observations from a re-analysis of the deposited data

Results flagged for a closer look

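6 genes were called in the WT comparison and went the opposite way in both LSD1 KO libraries. For each, the pooled LSD1 KO interval lay beyond the level of the other LSD1 KO barcodes. The number of called genes looked at for this is not given, so these 6 are examples and not a share. The difference between the genotypes was not tested, and it rests on 8 and 13 LSD1 KO members, of which 5 in replicate 2 hold at most 1 of the 12 panel genes. Nrp1, lower in WT members, stood at 73.9 CPM over the LSD1 KO members (51.5 to 103, exact Poisson 95% interval), with 133 and 52.0 CPM by library against 6.91 and 4.71 CPM in the other LSD1 KO barcodes. Lamb1 stood at 108 CPM, with 102 and 110 CPM by library against 62.3 and 52.7 CPM. Id1, a target of BMP signals, stood at 251 CPM, with 580 and 130 CPM against 202 and 109 CPM, and Id2 at 92.9 CPM, with 133 and 78.0 CPM against 54.4 and 46.3 CPM. Cdkn1c stood at 27.5 CPM, with 31.4 and 26.0 CPM against 8.74 and 9.51 CPM. Prrx2 stood at 33.8 CPM, with 39.2 and 31.8 CPM against 18.9 and 16.5 CPM. For Nrp1 and Cdkn1c the LSD1 KO members were below the WT members all the same, at 284 and 115 CPM in WT. The level outside the members differed between the genotypes for both: Nrp1 stood at 570 and 304 CPM and Cdkn1c at 299 and 197 CPM in the other WT barcodes. Without the 5 members that lack the panel, the levels over the other 16 were 97.0 CPM for Nrp1, 99.8 CPM for Lamb1, 327 CPM for Id1, 116 CPM for Id2 and 36.0 CPM for Prrx2 (interval 19.2 to 61.6), each interval still above the other LSD1 KO barcodes. Cdkn1c no longer met the condition: it stood at 13.9 CPM (4.50 to 32.3), with 4.29 CPM in the 8 members left in replicate 2 against 9.51 CPM outside.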

How the results depend on the processing

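The direction of the share difference held under every setting tried. It ranged from -2.17 to -0.346 points when each library was left out in turn. With the replicate number as a block the mean difference stayed -1.26 points, by construction, and 2 pairs cannot give an exact p below 0.5. Same-numbered libraries share only a number in the labels, and their deviations correlated with r = 0.21 across 8690 genes. For the fits no library could be left out, since 1 pair leaves no spread. DESeq2 called fewer genes: 856 higher and 624 lower against other WT barcodes, 620 and 367 against cardiac and lateral mesoderm, and 508 and 269 against mesenchyme. Without the replicate block 630 genes were lower than in mesenchyme. With 4 or more markers 815 were higher and 572 lower there. With 1 CPM added, 638 genes were at least 2 times higher and 1240 lower in both WT libraries. In 1 WT library alone, 576 to 581 genes were at least 2 times higher and 807 to 941 lower. Over 134 genes followed under 9 alternatives, none changed sign while called, and 19 lost the call at least once, among them Nrp1, Lama4, Dppa4 and Hbb-bh1 without the block. Jag1 and Hbb-bh1 lost it under 3 of the 9 and Twist1 under 2. The number of LSD1 KO members limits their levels, as 21 barcodes hold 473512 UMIs against 2782452 in 136 WT members; leaving out the 5 that lack the panel, a choice made after seeing the data, moved Fli1, Kdr, Id1 and Cdkn1c beyond their intervals.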
